A study of Mus musculus with 120 samples.

Results

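Neurons of the anterodorsal nucleus (AD) and the anteroventral nucleus (AV) of the mouse anterior thalamus were compared, both labelled by the lipophilic tracer DiI placed in the retrosplenial cortex. The members were chosen by library title and number 12 of the 120 bulk RNA-seq libraries of the series, 4 of AD and 8 of AV. Labelled neurons were picked by hand from dissociated slices in pools of 38 to 58 cells for AD and 44 to 123 cells for AV. All came from wild-type males, which received the tracer and no other treatment named in the labels. The 4 AD libraries and AV libraries 1 to 5 shared 1 amplification date. The AD mice with a recorded age were 97 to 100 days old (the age of AD library 4 is not recorded), and those of AV libraries 1 to 5 were 97 to 128 days old. AV libraries 6 to 8 had another amplification date and came from mice of 441 to 444 days, so that age and date cannot be told apart within AV. AV library 8 pooled 2 mice, and each other library of AD and AV came from 1 mouse. Of the 10 animals, 3 gave both an AD and an AV library: AD 1 with AV 4, AD 2 with AV 2, and AD 3 with AV 3. The laterodorsal nucleus (LD), labelled by DiI from the same cortex in 5 libraries, served as a reference, and it shared no animal and no date with AD. The LD mice were wild-type males of 90 to 128 days (libraries 1 to 3) and 441 to 442 days (libraries 4 and 5), in pools of 22 to 53 cells, with LD library 2 from 2 mice.

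The anterior thalamic nuclei link the mammillary bodies of the hypothalamus with the retrosplenial cortex and the hippocampal formation. AD receives its main ascending input from the lateral mammillary nucleus and is known for head direction cells, which fire when the animal faces a given way. AV receives its main ascending input from the medial mammillary nucleus and is known for many neurons that fire in the theta rhythm. Both project to the retrosplenial cortex, so the comparison holds tracer and target constant and varies the nucleus.

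Total counts ran from 8799996 to 12895661 in AD and from 9337261 to 16282565 in AV. AD libraries detected 11944 to 13164 genes and AV libraries 11199 to 14332. Values are CPM, read counts scaled to the size of each library. The log2 fold changes (AD minus AV) come from a single edgeR fit of all 120 libraries. The ± value after a log2 fold change is a standard error derived from the test. It is the absolute log2 fold change over the square root of the F statistic. For genes nearly absent from 1 nucleus both depend on the prior count. A gene is called when its Benjamini-Hochberg adjusted p over all 16527 genes tested is under 0.05. In pooled cells, fewer cells of a type and less RNA per cell cannot be told apart. No source used here says whether libraries of 1 nucleus were separate labelling experiments, beyond the animal and date of each.

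Both nuclei carried the general profile of thalamic relay neurons. Slc17a6, which encodes the vesicular glutamate transporter VGLUT2, was at 1274 ± 200.4 CPM in AD (SD, n = 4) and 1045 ± 149 in AV (SD, n = 8). Tcf7l2, a transcription factor of postmitotic thalamic neurons, was at 1343 ± 168 in AD and 1506 ± 230.0 in AV. Neither was called, at edgeR adjusted p of 0.387 for Slc17a6 and 0.695 for Tcf7l2, and the groups overlapped for both. Microglial markers were near absence: C1qc was at 0 in all 12 libraries and Csf1r was read in AV alone, at up to 16.7 CPM in 1 library. The 12 oligodendrocyte markers tested summed to between 21.8 and 147 CPM in AD and between 0.992 and 434 in AV, and none was called. Of 4 markers of reticular and other inhibitory neurons, Sst was at 0 throughout, Npy was at 0 in AD, and the summed level was at most 2.74 CPM in AD and 15.4 in AV. Of 10 astrocyte markers 1 was tested, Aldoc, which is also made by some neurons. It was called higher in AD, at 243 ± 74.3 CPM against 41.6 ± 10.3 (log2 fold change 2.55 ± 0.61, adjusted p = 0.00284). The 2 habenular markers summed to 0 to 12.5 CPM in AD and 0.257 to 42.4 in AV, and Kcnj13 of choroid plexus to 0.236 to 8.70 in AD and 0 to 102 in AV, with no call. Of 4 markers of hippocampal and cortical excitatory neurons tested, Camk2a, a calcium-calmodulin kinase subunit, was called lower in AD, at 102 ± 43.6 CPM against 371 ± 47.9 (log2 fold change -1.86 ± 0.25, adjusted p = 3.43e-09). These 4 summed to 893 to 1201 CPM in AD and 1346 to 2014 in AV, without overlap. The part of these other cells in the differences below was not tested.

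The markers given for the 2 nuclei separated them in every library. C1ql2, a secreted protein of the C1q family that organises excitatory synapses, was at 341, 168, 204 and 312 CPM in the 4 AD libraries. In AV it had a lowest value of 0, a median of 0.154 and a highest of 9.12 CPM (log2 fold change 7.56 ± 1.28, adjusted p = 4.25e-05). The highest AV value was that of AV library 4, and without it the log2 fold change was 9.99. AV 4 shares its mouse with AD 1. It was also the highest AV library for Frem3, Slc44a5 and Ntng2, and it held no read of Gpr139, Chrm1 or Htr2a. The cause of these values was not tested. Gpr139, an orphan receptor that responds to aromatic amino acids, was at 268, 158, 259 and 273 CPM in AD. Only 2 reads fell in it over the 8 AV libraries, against 10546 in AD, a ratio of scaled counts of 12249 (95% counting interval 3390 to 101158, adjusted p = 6.33e-07). Npsr1, the receptor of neuropeptide S, was the mirror image, with 1 read in AD, in library 4. AV held 97.4 to 327 CPM of Npsr1 with a median of 171, a ratio of 8424 over AD (95% counting interval 1512 to 332749, adjusted p = 0.000796). These reads came without molecular identifiers, so such intervals and the floors used below cover counting error only.

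Kcnq3, a subunit of the Kv7 channels that carry the M-current, was present in both nuclei at very different levels. It was at 79.1, 39.4, 87.0 and 4.72 CPM in AD and between 1121 and 3389 in AV, with a median of 1792 (log2 fold change -5.37 ± 0.46, adjusted p = 5.26e-18). Every AV library was above every AD library, and AD library 4 was the lowest of all. On the mm10 genome the 4 genes lie at chr1:120340582-120343174 for C1ql2 on the plus strand, chr7:119140747-119184603 for Gpr139 on the minus strand, chr9:24097996-24316398 for Npsr1 on the plus strand and chr15:65986387-66286642 for Kcnq3 on the minus strand. An antisense model overlaps exons of Npsr1, and the library kit does not mark strand.

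**Figure D1:**
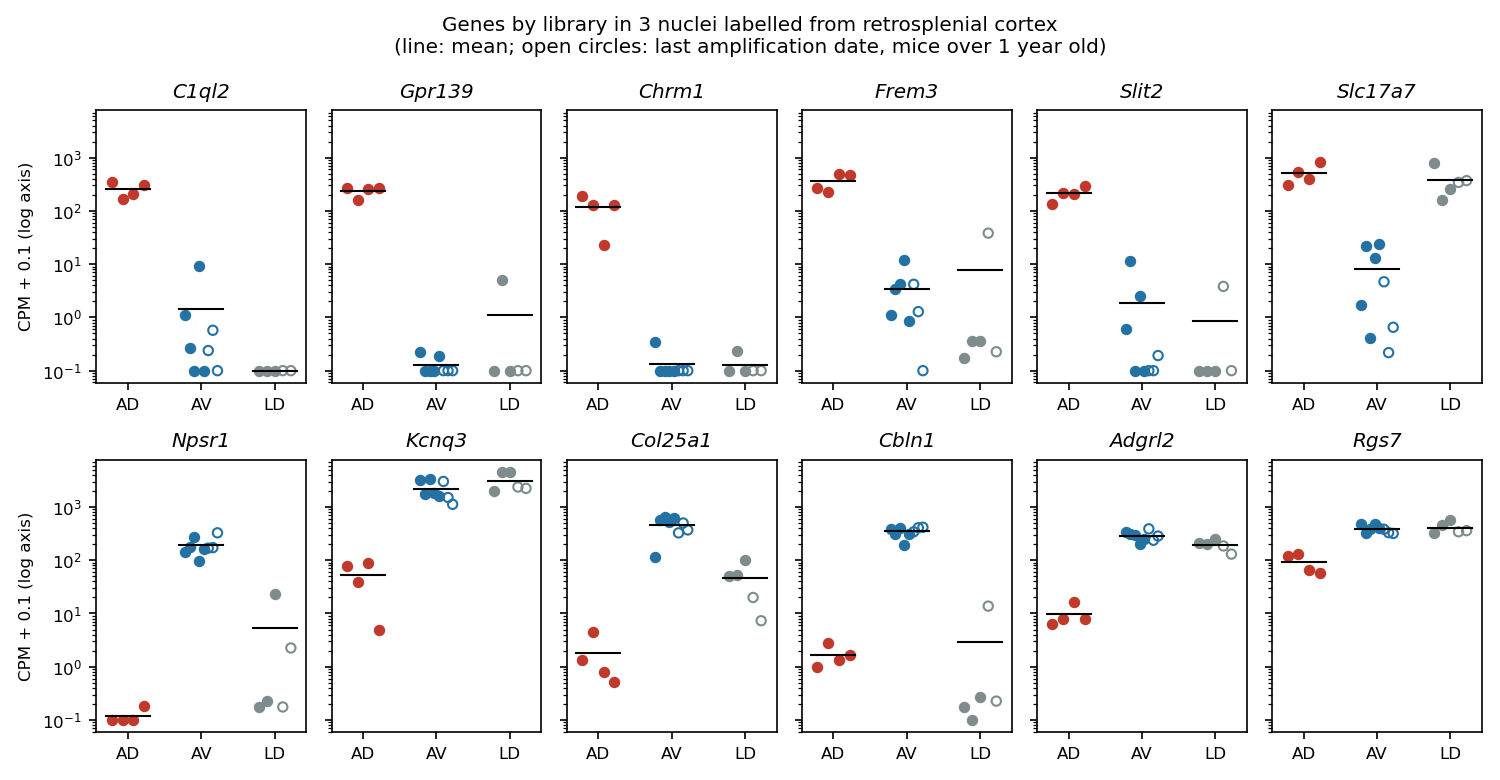
Level of 12 genes in each library (points, CPM + 0.1 on a log axis) of AD, AV and LD, with the mean of each nucleus as a line and open circles for libraries of the last amplification date. The upper genes are high in all 4 AD libraries and the lower genes in all 8 AV libraries, and AV 4 is the highest AV point for C1ql2 (9.12 CPM) and Frem3 (11.8 CPM).

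The sequence before the start of 4 called genes whose ranges did not overlap is shown to set the regulatory sequence of an AD-high pair (C1ql2 and the vesicular transporter gene Slc17a7) beside that of an AV-high pair (the neuropeptide gene Cck and the postsynaptic gene Iqsec3). Each is the 250 bases before the RefSeq start on the gene's strand (build GRCm38.p6), with every CG dinucleotide, the site of DNA methylation in mammals, in capitals.
C1ql2: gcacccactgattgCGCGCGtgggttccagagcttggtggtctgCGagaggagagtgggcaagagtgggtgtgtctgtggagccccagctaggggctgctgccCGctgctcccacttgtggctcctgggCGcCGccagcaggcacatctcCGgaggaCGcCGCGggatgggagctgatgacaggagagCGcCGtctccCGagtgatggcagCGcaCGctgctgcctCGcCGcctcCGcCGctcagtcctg
Slc17a7: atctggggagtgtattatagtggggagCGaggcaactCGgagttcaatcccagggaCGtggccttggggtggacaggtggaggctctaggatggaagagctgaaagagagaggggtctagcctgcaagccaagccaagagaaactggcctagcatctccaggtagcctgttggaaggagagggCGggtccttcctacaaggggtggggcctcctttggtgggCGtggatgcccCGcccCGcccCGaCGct
Cck: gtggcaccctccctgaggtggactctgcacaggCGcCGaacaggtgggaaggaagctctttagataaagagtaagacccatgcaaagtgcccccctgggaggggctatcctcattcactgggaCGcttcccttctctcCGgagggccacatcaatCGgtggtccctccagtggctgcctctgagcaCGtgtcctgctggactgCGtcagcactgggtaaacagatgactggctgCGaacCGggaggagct
Iqsec3: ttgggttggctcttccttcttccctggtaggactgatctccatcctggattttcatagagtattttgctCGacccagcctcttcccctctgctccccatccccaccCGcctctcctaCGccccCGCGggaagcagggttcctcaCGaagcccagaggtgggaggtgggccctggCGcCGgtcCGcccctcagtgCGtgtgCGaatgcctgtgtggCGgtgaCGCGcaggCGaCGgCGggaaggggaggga
The windows lie at chr1:120340332-120340581 for C1ql2 (plus strand), chr7:45163671-45163920 for Slc17a7 (plus), chr9:121495695-121495944 for Cck (minus) and chr6:121473679-121473928 for Iqsec3 (minus). They hold 20, 9, 9 and 17 CG dinucleotides in that order. A CG reads the same on both strands, and 92.1% of the 32851 promoter windows of the table hold at least 1. Of the genes named by rule and called, 30 of 42 higher in AD and 32 of 53 lower had an entry. Their first listed windows held a median of 14.5 CG (4 to 40) on the AD side and 11.0 (1 to 46) on the AV side, against 6.0 (0 to 56) in the whole table. The whole table counts every listed window of a gene, so its median is of an unlike set. The spans of both sides overlapped over most of their length, and no methylation was measured here.

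Across the genome 940 of 16527 genes were called between AD and AV (5.69%), 461 higher in AD (2.79%) and 479 lower (2.90%). DESeq2 called a like number, 967, with a different split of 367 higher and 600 lower. The CPM ranges of the nuclei did not overlap for 641 genes (3.88%), and 486 genes (2.94%) were both called and apart. The median log2 fold change over all genes was -0.08. With the AV libraries of the shared date alone, 780 genes were called (4.72%), of which 682 were among the 940 with the same direction. Between the AV libraries of the other date and those of the shared date 13 genes were called (0.0787%), and 7 of the 940 were among them.

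Fits with the animal or the amplification date as a term used the libraries of the compared nuclei alone. For AD and AV that smaller fit called 475 genes without a term. Adcyap1, Cacng4, Calb1, Cdh11, Etv1, Gabbr2, Gria1, Grik2, Kcnk3, Tox3 and Vgf, described below, were already not called in it. With the animal as a term only the 3 animals that gave both nuclei inform the difference. In this fit 413 of 12767 genes were called (3.23%), 171 higher in AD (1.34%) and 242 lower (1.90%). Of the 940, 353 kept their call and direction. Of the 104 genes named by rule 95 were called in the main comparison, and 93 of these had the same direction in all 3 animals. The libraries of these animals also entered the calls. Genes with ranges apart must keep their direction in every animal, so this count is no separate test. Of the 104, 33 have exons that overlap another annotated gene, mostly on the opposite strand, and without strand their reads cannot be told apart. Among the genes described below these are Chrm1, Grin2b, Grm7, Kcnj6, Kcnk3, Gabra4, Gabra5, Cdh8, Pcdh7, Adgrl2, Ntng2, Nr2f2, Gbx2, Grik4, Prkca, Plcb1, Rgs16, Pcp4, Atp2a2, Slc44a5, Ano3, Necab1, Rapgef3, Ak5, Nefl and Nefm. Counts of list members with the animal as a term are given below where they differ from the main count by more than 1.5 times.

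**Figure D2:**
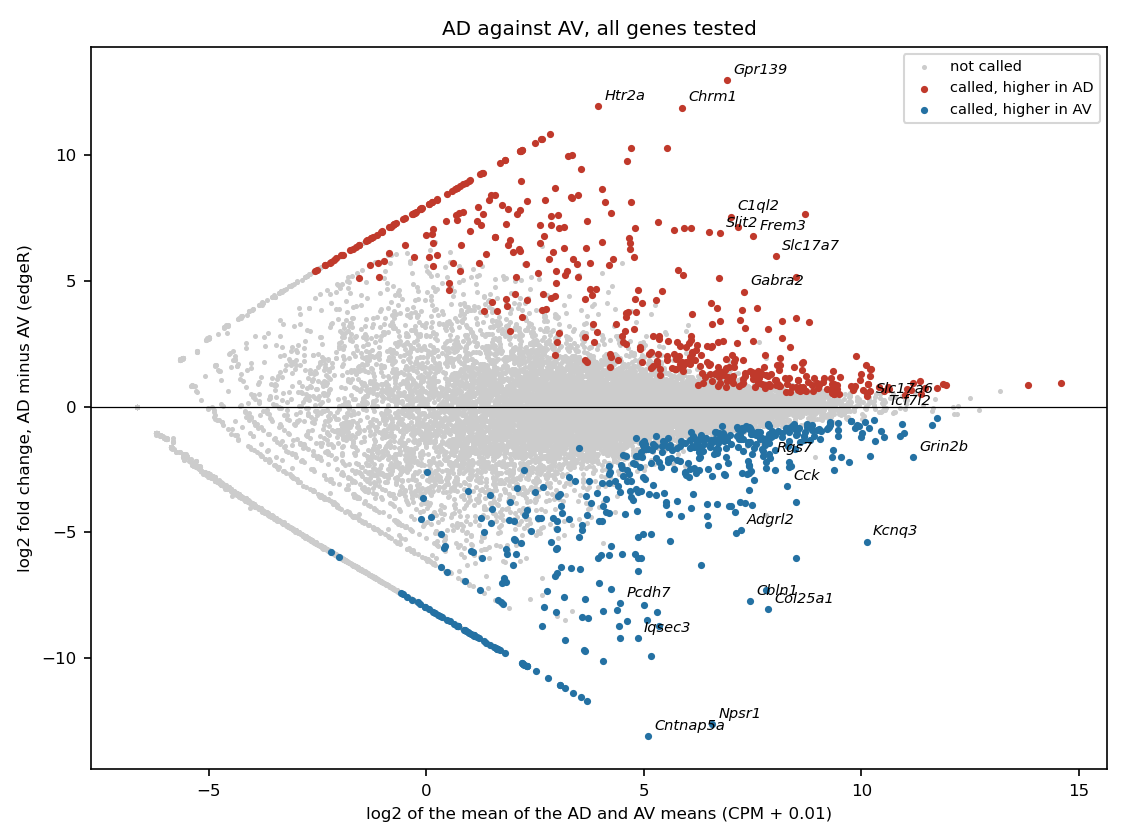
Log2 fold change of AD minus AV (edgeR) for the 16527 genes tested, against the log2 mean level of the 2 nuclei, with called genes in red (461 higher in AD) and blue (479 higher in AV). Slc17a6 and Tcf7l2 lie near the zero line, and Gpr139, Htr2a and Chrm1 opposite Npsr1 and Cntnap5a at the ends; the straight edges are genes without reads in 1 nucleus, whose fitted values depend on the prior count.

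Receptors for amines and acetylcholine differed between the nuclei in both directions. Of 22 tested, 5 were called higher in AD and 3 lower (36.4% in all, against 5.69% of all genes). The median log2 fold change was -0.01. With the animal as a term 2 were higher and 2 lower. Chrm1, the M1 muscarinic acetylcholine receptor, was at 191, 129, 23.0 and 127 CPM in AD. A single AV library held 2 reads of it, which gives a ratio of 5607 (95% counting interval 1551 to 46308, adjusted p = 6.33e-07). Htr2a, the serotonin 2A receptor, was at 7.10, 19.0, 39.7 and 58.1 CPM in AD and at 0 in all 8 AV libraries. Against a floor of 3 counts over the summed AV libraries Htr2a was at least 1064-fold higher in AD (adjusted p = 2.54e-05). Chrm3, the M3 muscarinic receptor, went the other way, at 2.41, 3.43, 3.07 and 6.22 CPM in AD and 19.5 to 68.8 in AV with a median of 37.1 (log2 fold change -3.40 ± 0.85, adjusted p = 0.00429). The nuclei did not overlap for any of these 3 receptors. The other called members were at low levels, with means under 3 CPM in the higher nucleus for Drd5, Htr2c, Hrh1 and Hrh2. Adrb1, the beta-1 adrenergic receptor, was called lower in AD (0.883 ± 1.53 against 23.2 ± 18.5 CPM, adjusted p = 0.0135), but the groups overlapped. Its log2 fold change was -4.69, and -7.49 without AD 2. The call ended without AD 1 (adjusted p = 0.0694), AD 3 (0.0694) or AD 4 (0.0668), and with the animal as a term (0.0608).

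Among peptide, cannabinoid and orphan receptors 5 of 29 were called higher in AD, namely Gpr139, Sstr2, Nmbr, Ntsr1 and Tacr1, and 2 lower, Npsr1 and Npy1r. These calls are 24.1% of the list, against 5.69% of all genes. With the animal as a term 2 were higher and 1 lower. The median log2 fold change of the list was 0.00, and 5 members had no read in AD or AV. Sstr2, a somatostatin receptor, was at 2.16, 3.86, 38.6 and 12.5 CPM in AD and at 0 in AV (at least 489.9-fold, adjusted p = 0.000788). Without AD 3 the bound was 212-fold. The call was not made with the animal as a term (adjusted p = 0.123). Nmbr, the neuromedin B receptor, was at 25.5 ± 23.0 CPM in AD and 0.152 ± 0.387 in AV. Ntsr1, a neurotensin receptor, was at 20.2 ± 18.04 in AD and 0.0492 ± 0.139 in AV, and was not called with the animal as a term (adjusted p = 0.129). The spread of both within AD was nearly as large as their mean.

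Of 14 neuropeptide genes tested 3 were called (21.4%, against 5.69% of all genes). Cck, the precursor of cholecystokinin, was the clearest, at 25.4, 117, 47.0 and 64.3 CPM in AD against 373 to 978 in AV with a median of 491 (log2 fold change -3.15 ± 0.41, adjusted p = 1.54e-09). All 8 AV libraries were above all AD libraries. Vgf, a secreted granin-like protein, was also lower in AD (5.59 ± 7.96 against 43.1 ± 28.9 CPM, log2 fold change -2.94, adjusted p = 0.00192) but overlapped, and its log2 fold change was -4.68 without AD 4. Vgf was not called with the amplification date as a term (adjusted p = 0.225), nor in the edgeR fit of AD and AV alone without it (0.117). Adcyap1, the precursor of PACAP, was higher in AD (28.8 ± 23.8 against 1.13 ± 1.59 CPM, log2 fold change 4.69, adjusted p = 0.00722). The log2 fold change of Adcyap1 was 3.95 without AD 3 and 5.35 without AV 1, and its call ended with the AV libraries of the shared date alone (adjusted p = 0.0637) and with the animal as a term (0.0770). The call also ended in the edgeR fit of AD and AV alone without a term (0.0656).

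Of 35 voltage-gated potassium channel genes, which set firing and repolarisation, 10 were called lower in AD and 2 higher (34.3% in all, against 5.69% of all genes), with a median log2 fold change of -0.34. With the AV libraries of the shared date 9 were lower and 4 higher. Kcnq3 was described above. Kcnip3, a calcium-binding partner of Kv4 channels, was at 0, 0.0857, 0.315 and 0 CPM in AD and 11.1 to 63.6 in AV with a median of 26.4 (log2 fold change -8.13 ± 0.97, adjusted p = 7.55e-11), and its log2 fold change was -9.72 without AD 3. Kcnc2, a Kv3 channel of fast-spiking neurons, was at 669, 798, 589 and 662 CPM in AD and 1073 to 1705 in AV with a median of 1386 (log2 fold change -1.03 ± 0.20, adjusted p = 0.000141). The nuclei did not overlap for Kcnip3 or Kcnc2. Against this direction, Kcnh2, the ERG channel, was higher in AD at 129 ± 75.6 against 30.8 ± 14.1 CPM (adjusted p = 0.0144), and this call was not made without AD 4 (0.133) or with the animal as a term (0.0770). The other higher gene, Kcnv1, had a mean of 1.85 CPM in AD and none in AV.

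Leak, inward rectifier and calcium-activated potassium channels gave 3 calls of 23 (13.0%, against 5.69% of all genes). Kcnj3, Kcnj6 and Kcnk3 were all lower in AD, and 1 gene was called with the animal as a term. Kcnj6, the GIRK2 subunit opened by G proteins, was at 42.0, 52.1, 19.0 and 45.9 CPM in AD and 62.7 to 267 in AV, without overlap (log2 fold change -1.60, adjusted p = 0.0115). Without AD 3 (0.0933) or AV 1 (0.0510) the adjusted p of Kcnj6 was above the threshold. Kcnk3, the TASK-1 leak channel, was lower in AD at 1.27 ± 1.11 against 15.1 ± 15.3 CPM (log2 fold change -3.55, adjusted p = 0.00834). Its log2 fold change was -4.18 without AD 2, and its call ended without AD 1 (0.0550), with the AV libraries of the shared date (0.0636) and with the animal as a term (0.375). Kcnk3 was also not called in the edgeR fit of AD and AV alone without a term (0.175). Of 11 sodium channel genes edgeR called none (0.00%, against 5.69% of all genes). The summed list overlapped, at 3200 to 4076 CPM in AD and 2833 to 3829 in AV. Scn4b, a beta subunit linked to resurgent current, was at 94.98, 45.0, 44.5 and 105 CPM in AD and 0.372 to 23.7 in AV, groups that did not overlap, with no call (adjusted p = 0.191). Scn4b was called higher in AD by DESeq2 (log2 fold change 2.39, adjusted p = 0.00689) and by edgeR on the compared groups alone (0.0456).

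Of 20 calcium channel genes 2 were called higher and 6 lower in AD, against 5.69% of all genes called in either direction. There was 1 call each way with the animal as a term. Cacna1e, the R-type channel, was at 282, 373, 263 and 166 CPM in AD and 0.496 to 74.9 in AV with a median of 18.1 (log2 fold change 3.46 ± 0.62, adjusted p = 1.73e-05). Cacna2d1, an alpha2delta subunit that binds gabapentin, was at 186 ± 61.8 in AD and 388 ± 60.7 in AV (log2 fold change -1.06, adjusted p = 0.000488), and was not called with the animal as a term (adjusted p = 0.110). Cacng4, an auxiliary subunit of AMPA receptors, was at 0, 30.0, 0.236 and 0.0829 CPM in AD and 21.5 to 120.1 in AV (log2 fold change -3.13, adjusted p = 0.000149). AD 2 alone overlapped AV for Cacng4, without it the log2 fold change was -9.04, and no call was made by DESeq2 (adjusted p = 0.119) or with the amplification date as a term (0.244). Cacng4 was also not called in the edgeR fit of AD and AV alone without a term (0.189). Of the T-type channels, which carry thalamic burst firing, Cacna1g was not called (97.0 ± 61.7 in AD, 172 ± 59.2 in AV, adjusted p = 0.0855), but it was called lower in AD without AD 2 (log2 fold change -1.37, adjusted p = 0.00339). Cacna1i was called higher in AD (21.7 ± 28.2 against 0.402 ± 0.679 CPM, log2 fold change 5.67, adjusted p = 0.00590), a call that ended without AD 4 (log2 fold change 4.20, adjusted p = 0.0794) and with the animal as a term (0.224). The log2 fold change of Cacna1i was 6.61 without AV 7.

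Ionotropic glutamate receptors were called in both directions. Grin2b, the NMDA receptor subunit GluN2B, was at 1175, 1144, 690.4 and 730.2 CPM in AD and 3024 to 5409 in AV with a median of 3683 (log2 fold change -2.01 ± 0.21, adjusted p = 1.11e-13). The lowest AV library held more than 2 times the level of the highest AD library. Of 17 ionotropic receptor genes 2 were called higher in AD (Grik2 and Grik4) and 3 lower (Gria1, Gria2 and Grin2b). That is 29.4%, against 5.69% of all genes, and with the animal as a term 1 was called, lower. Of these genes, Gria1 was not called without AD 3 (adjusted p = 0.0505), with a log2 fold change of -2.77 without AD 4, and Grik2 was not called without AD 1 (0.0956) or AD 2 (0.0582). Grm7, a presynaptic metabotropic glutamate receptor, was at 31.6, 21.1, 20.1 and 15.4 CPM in AD and 95.1 to 145 in AV with a median of 117 (log2 fold change -2.45 ± 0.30, adjusted p = 1.40e-10). Neither Grin2b nor Grm7 overlapped between the nuclei.

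GABA and glycine receptor genes gave 3 calls higher and 2 lower of 20 (25.0%, against 5.69% of all genes). With the animal as a term 2 were called, both higher. Gabra2, an alpha subunit of synaptic GABA-A receptors, was at 557, 239, 315 and 103 CPM in AD and 1.87 to 72.4 in AV with a median of 5.00 (log2 fold change 4.58 ± 0.54, adjusted p = 5.12e-11). The highest AV value was AV 1, and without it the log2 fold change of Gabra2 was 6.14. Gabra5, an alpha subunit found mostly outside synapses, was also higher in AD at 106 ± 38.1 against 20.2 ± 17.2 CPM (log2 fold change 2.39, adjusted p = 0.0106). AV 1 at 59.3 CPM overlapped AD for Gabra5, and the call ended with the AV libraries of the shared date (adjusted p = 0.0867) and with the date as a term (0.0809). The third gene, Gabrg1, had a mean of 2.31 CPM in AD. Gabra4, the usual partner of delta in thalamic relay neurons, was at 549 ± 63.3 in AD and 851 ± 90.1 in AV without overlap (log2 fold change -0.63, adjusted p = 0.0231). This call of Gabra4 ended without AD 1 (0.0749) or AD 3 (0.111), with the shared date (0.0549) and with the animal as a term (0.168). Gabbr2, a GABA-B subunit, had an adjusted p of 0.0415, which rose above the threshold without any 1 of 7 libraries, AD 1 to 4 and AV 1, 4 and 5 (log2 fold change -0.49 to -0.60), and to 0.539 with the animal as a term. The adjusted p of Gabbr2 was 0.109 in the edgeR fit of AD and AV alone without a term.

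Genes of the synaptic vesicle and its release were called in 20 of 42 cases (47.6%, against 5.69% of all genes), 14 higher in AD and 6 lower. The median log2 fold change was 0.27 against -0.08 over all genes. Of these genes 6 were higher and 3 lower with the animal as a term. The 42 genes summed to 46810 to 73376 CPM in AD and 29092 to 49635 in AV, so the ranges overlapped. Slc17a7, the vesicular glutamate transporter VGLUT1, was at 312, 544, 398 and 818 CPM in AD and 0.118 to 23.6 in AV with a median of 3.09 (log2 fold change 5.99 ± 0.84, adjusted p = 1.87e-08). Syt2, a fast calcium sensor of release, was at 20.3, 83.5, 89.96 and 289 CPM in AD and 0 to 2.42 in AV (log2 fold change 7.10 ± 1.62, adjusted p = 0.00140, and 6.20 without AD 4). In the other direction, Rims3, a small active zone protein, was at 12.05, 59.5, 49.6 and 51.3 CPM in AD and 134 to 590.4 in AV with a median of 340.3 (log2 fold change -2.91 ± 0.33, adjusted p = 8.38e-12). The groups did not overlap for these 3 genes. The vesicle priming genes Unc13c and Unc13b went opposite ways, Unc13c at 14.4 ± 9.07 in AD and 0.0679 ± 0.111 in AV, and Unc13b at 4.48 ± 5.01 in AD and 46.6 ± 17.9 in AV. Neither was called with the animal as a term (adjusted p = 0.106 for Unc13c and 0.0986 for Unc13b), and the log2 fold change of Unc13b was -3.36, or -4.45 without AD 3.

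**Figure D3:**
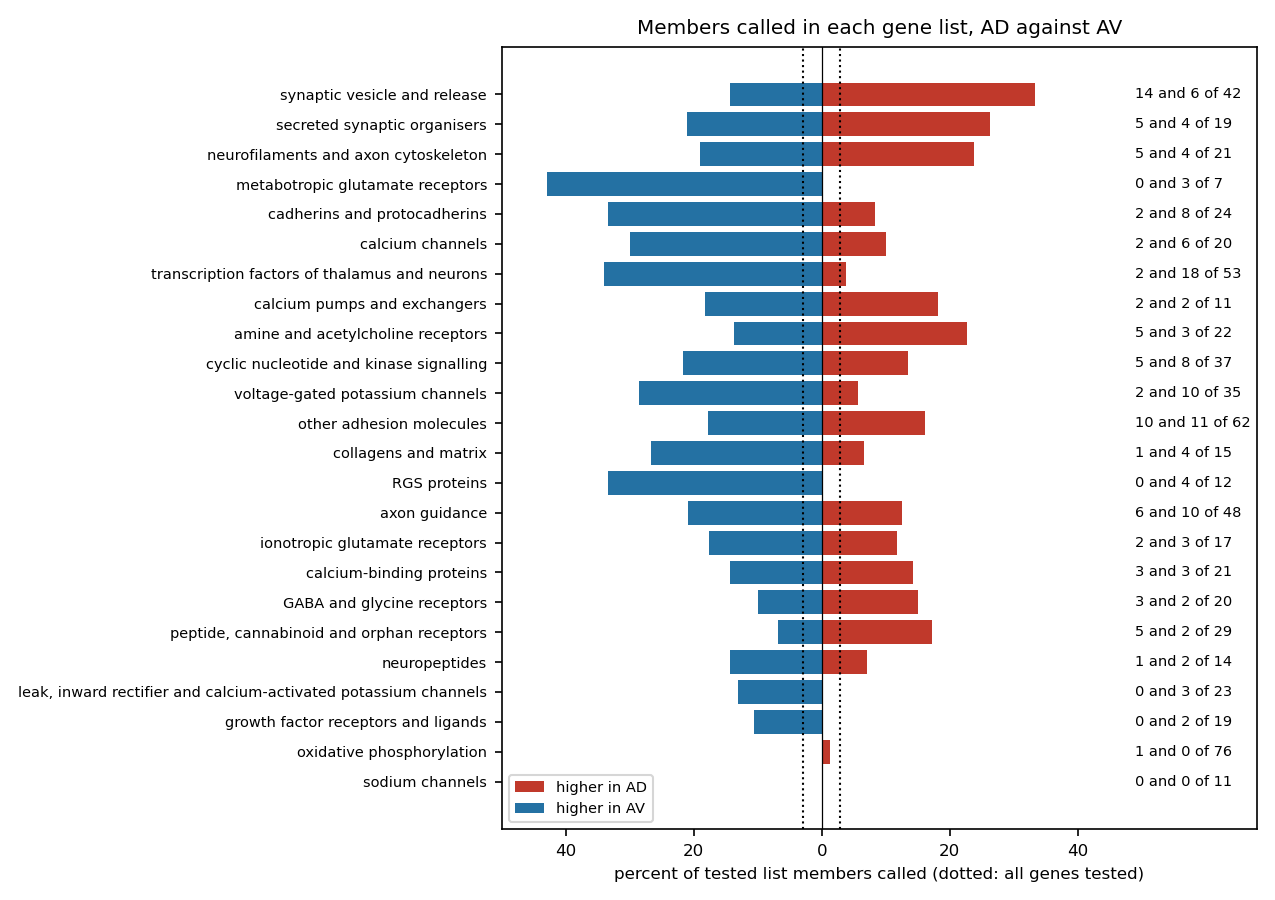
Percent of the tested members of each gene list called higher in AD (red, to the right) and higher in AV (blue, to the left), with the numbers called and tested at the right and dotted lines at the percent over all genes (2.79 and 2.90). Vesicle and release genes have 14 of 42 to the AD side, and transcription factors 18 of 53 to the AV side.

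Secreted proteins that organise synapses divided between the nuclei, with 5 of 19 called higher in AD and 4 lower. These are 47.4% of the list, against 5.69% of all genes. Beside C1ql2, Fgf1, a fibroblast growth factor, was at 63.3, 153, 257 and 243 CPM in AD and 0.473 to 4.79 in AV (log2 fold change 6.94 ± 1.23, adjusted p = 1.45e-05). The list was completed on the AD side by Nxph1, Nptxr and Fgf10, of which Nxph1, a ligand of alpha-neurexins, was at 507 ± 54.6 in AD and 75.2 ± 37.2 in AV. Cbln1, which bridges neurexins and delta glutamate receptors, was at 0.888, 2.66, 1.26 and 1.57 CPM in AD and 195 to 416 in AV with a median of 367 (log2 fold change -7.74 ± 1.46, adjusted p = 5.33e-05). The related Cbln2 had 1 read in AD against a mean of 12.5 ± 9.70 CPM in AV, a ratio of 582 over AD (95% counting interval 104 to 22988, adjusted p = 0.000184). Lgi1, a ligand of ADAM proteins, and Fgf13 were the other genes lower in AD, with Lgi1 at 26.8 ± 8.87 in AD and 150 ± 64.2 in AV. The C1q-domain genes C1ql2 and Cbln1 thus differed in opposite directions, without overlap. Cbln1 was higher still in the nuclei labelled AM and IAD.

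Cadherins and protocadherins, which join cells through like molecules on both sides, gave 8 of 24 called lower in AD and 2 higher (41.7% in all, against 5.69% of all genes), with a median log2 fold change of -0.83. In the fit with the animal 4 were called lower and 1 higher. Pcdh7 was at 0.507, 0, 0.0787 and 0.249 CPM in AD and 30.1 to 62.1 in AV with a median of 40.5 (log2 fold change -7.81 ± 0.57, adjusted p = 7.45e-22, and -8.55 without AD 1). Cdh8 was at 0, 13.2, 0.236 and 13.0 CPM in AD and 149.5 to 192 in AV with a median of 176 (log2 fold change -4.69 ± 0.52, adjusted p = 5.54e-12). Both were apart in all libraries, and AD 2 and AD 4 were higher than AD 1 and AD 3 for Cdh8. Cdh11 was called higher in AD at 161 ± 26.8 against 67.3 ± 39.6 CPM (log2 fold change 1.26, adjusted p = 0.00953) with overlap, and it was not called with the AV libraries of the shared date (0.0537), with the date as a term (0.250) or by DESeq2 (0.0704). Nor was Cdh11 called in the edgeR fit of AD and AV alone without a term (0.113).

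Of 62 other adhesion molecules 10 were called higher in AD and 11 lower (33.9% in all, against 5.69% of all genes). Their median log2 fold change was 0.08. Cntnap5a, a relative of the contactin-associated proteins, had no read in AD and 8.93 to 116 CPM in AV with a median of 70.1, which is at least 1013-fold higher in AV (adjusted p = 6.91e-10). Its paralog Cntnap5c had 3 reads in AD against 7131 in AV, a ratio of 1023 (95% counting interval 350.0 to 4963, adjusted p = 1.92e-10). Reads of near-identical stretches of the paralogs may have been split between them. Adgrl2, the latrophilin-2 receptor that binds teneurins, was at 6.34, 7.88, 16.3 and 7.87 CPM in AD and 203 to 388 in AV with a median of 289 (log2 fold change -4.91 ± 0.31, adjusted p = 1.24e-26). All 8 AV libraries were above all AD libraries. Ntng2, netrin-G2, was higher in AD at 59.3, 16.9, 82.3 and 47.7 CPM against 0 to 1.07 in AV, without overlap (log2 fold change 8.14, and 9.76 without AV 4, adjusted p = 0.00565). It was not called with the AV libraries of the shared date (0.0555).

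Axon guidance genes were called in 16 of 48 cases (33.3%, against 5.69% of all genes), 6 higher in AD and 10 lower. Their median log2 fold change was -0.70. Slit2, a secreted repellent for Robo-bearing axons, was at 133, 218, 211 and 293 CPM in AD and 0 to 11.2 in AV with a median of 0.0461 (log2 fold change 6.89 ± 1.46, adjusted p = 0.000456, and 8.96 without AV 2). Its receptors Robo1 and Robo2 were both among the 10 genes lower in AD. Unc5d, a netrin and FLRT receptor, was at 1.39, 6.60, 0 and 0 CPM in AD and 70.4 to 264 in AV with a median of 134 (log2 fold change -6.29 ± 1.11, adjusted p = 1.34e-05, and -8.54 without AD 2). Epha8, an ephrin receptor, was at 0.254, 2.14, 0.866 and 0.414 CPM in AD and 22.2 to 106 in AV with a median of 53.3 (log2 fold change -6.01 ± 1.06, adjusted p = 1.32e-05, and -6.83 without AD 2). Slit2, Unc5d and Epha8 did not overlap between the nuclei.

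Transcription factors were called mostly in 1 direction, with 18 of 53 lower in AD and 2 higher (37.7% in all, against 5.69% of all genes). The median log2 fold change of the 53 was -0.36. In the fit with the animal 12 were called lower and 1 higher. Nr2f1 and Nr2f2, the COUP-TF nuclear receptors that pattern cortex and thalamus, were both lower in AD. Nr2f1 was at 3.80 ± 2.58 CPM in AD and 49.7 ± 13.7 in AV (log2 fold change -3.70 ± 0.43, adjusted p = 3.69e-11). Nr2f2 was at 0.888, 0.257, 0 and 0 CPM in AD and 1.98 to 82.0 in AV with a median of 17.9 (log2 fold change -6.44 ± 0.91, adjusted p = 2.60e-08). The log2 fold change of Nr2f2 was -7.98 without AD 1 and -5.77 without AV 3. Etv5, an ETS factor downstream of FGF signalling, was at 0.127, 0.600, 7.63 and 0.746 CPM in AD and 52.5 to 149 in AV with a median of 95.04 (log2 fold change -5.36 ± 1.03, adjusted p = 7.92e-05, and -7.52 without AD 3). Rora, a nuclear receptor of sensory thalamus, was at 957 ± 119 in AD and 1862 ± 420 in AV (log2 fold change -0.96, adjusted p = 0.000693).

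The 2 factors higher in AD, Etv1 and Tox3, overlapped between the nuclei and were not called with the animal as a term (adjusted p = 0.724 for Etv1 and 0.372 for Tox3). Neither was called in the edgeR fit of AD and AV alone without a term (0.222 for Etv1 and 0.115 for Tox3). Gbx2, required for thalamic neurons to form and connect, was at 14.3, 5.74, 20.2 and 14.2 CPM in AD and 0 to 34.1 in AV, and was not called (adjusted p = 0.604). Bhlhe22, outside the list, had no read in AV and 0.507, 27.3, 5.35 and 11.9 CPM in AD, at least 387-fold (adjusted p = 4.22e-05), or at least 203-fold without AD 2. Bhlhe22 was not tested in the fit with the animal as a term.

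Intracellular signalling genes were called in both directions. Among kinases, phosphodiesterases and related genes 5 of 37 were called higher in AD and 8 lower (35.1% in all, against 5.69% of all genes). Prkca, the alpha isoform of protein kinase C, was at 464, 423, 317 and 261 CPM in AD and 0 to 41.6 in AV with a median of 29.1 (log2 fold change 3.93 ± 0.70, adjusted p = 1.82e-05). Prkcd, the delta isoform often used to mark thalamic relay neurons, was not called (73.5 ± 41.3 in AD, 145 ± 45.9 in AV, adjusted p = 0.211). Plcb1, a phospholipase C, was higher in AD at 38.0, 75.2, 71.5 and 29.4 CPM against 0 to 2.01 in AV (log2 fold change 5.94 ± 0.53, adjusted p = 7.88e-17). Rasgrf2, a calcium-dependent Ras activator, was at 0, 0.428, 0 and 0.580 CPM in AD and 0.992 to 109 in AV with a median of 70.5 (log2 fold change -7.88 ± 1.03, adjusted p = 1.98e-09, and -8.64 without AD 4). AV 1 held the single AV value of Rasgrf2 under 42.6 CPM.

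RGS proteins, which shorten G protein signals, gave 4 of 12 lower in AD (Rgs7, Rgs8, Rgs14 and Rgs16) and none higher. The share called was 33.3%, against 5.69% of all genes. Rgs7 was at 121, 130.1, 65.9 and 56.9 CPM in AD and 318 to 486 in AV with a median of 387 (log2 fold change -2.05 ± 0.24, adjusted p = 1.61e-11). Rgs16 was at 21.1, 31.2, 31.2 and 14.3 CPM in AD and 83.2 to 223 in AV with a median of 182 (log2 fold change -2.77 ± 0.31, adjusted p = 8.13e-12). Both were apart in all libraries.

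Calcium handling differed in a few genes of each list. Of 21 calcium-binding proteins 3 were called higher and 3 lower (28.6% in all, against 5.69% of all genes), and with the animal as a term 2 and 1. Pcp4, a calmodulin regulator, was at 18.4, 6.85, 2.99 and 5.06 CPM in AD and 101 to 202 in AV with a median of 189 (log2 fold change -4.34 ± 0.38, adjusted p = 1.27e-17, and -5.08 without AD 1). S100a10, a partner of annexin A2, was at 32.2, 6.60, 8.26 and 29.2 CPM in AD against 1 read in AV, a ratio of 1831 (95% counting interval 328 to 72392, adjusted p = 1.45e-05). Calbindin, calretinin and parvalbumin, buffers often used to divide the thalamus, gave 1 call. Calb1 was at 0, 5.31, 0.157 and 0 CPM in AD and 0.208 to 26.5 in AV (log2 fold change -2.53, adjusted p = 0.000814), with overlap through AD 2. Without AD 2 its log2 fold change was -6.90, and it was not called by DESeq2 (adjusted p = 0.279) or with the animal as a term (0.568). Calb1 was also not called in the edgeR fit of AD and AV alone without a term (0.539). Calb2 (adjusted p = 0.861), Pvalb (0.320) and Necab1 (0.547) were not called.

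Atp2a2, the calcium pump of the endoplasmic reticulum, was at 1216, 1161, 1448 and 1446 CPM in AD and 2031 to 3596 in AV with a median of 2718 (log2 fold change -1.04 ± 0.17, adjusted p = 1.78e-06). Slc24a3, a potassium-dependent sodium-calcium exchanger, was higher in AD at 681, 789, 1031 and 940.3 CPM against 119.9 to 515 in AV (log2 fold change 1.13 ± 0.30, adjusted p = 0.00787). Together 4 of 11 pumps and exchangers were called (36.4%, against 5.69% of all genes), 2 in each direction. Neither Atp2a2 nor Slc24a3 overlapped.

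Of 15 extracellular matrix genes tested, 1 was called higher in AD and 4 lower (33.3% in all, against 5.69% of all genes). Frem3, a basement membrane protein of the FRAS family, was at 270.2, 222, 486 and 475 CPM in AD and 0 to 11.8 in AV with a median of 2.22 (log2 fold change 6.79 ± 0.99, adjusted p = 8.71e-08, and 7.45 without AV 4). Col25a1, a transmembrane collagen, was at 1.27, 4.46, 0.708 and 0.414 CPM in AD and 116 to 651 in AV with a median of 515 (log2 fold change -8.06 ± 0.67, adjusted p = 1.23e-18, and -9.22 without AD 2). Col12a1, a fibril-associated collagen, had no read in AD and 1.25 to 90.3 CPM in AV with a median of 11.1, at least 348-fold higher in AV (adjusted p = 0.000500). Its level in AV varied widely between libraries, with AV 1 highest, and without AV 1 the bound was 207-fold.

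Growth factor genes gave 2 calls of 19, both lower in AD (10.5%, against 5.69% of all genes). Igf1, insulin-like growth factor 1, was at 0.127, 2.31, 0 and 0 CPM in AD and 11.1 to 99.7 in AV with a median of 58.3 (log2 fold change -6.52 ± 0.83, adjusted p = 8.67e-10, and -10.53 without AD 2). Gfra1, a receptor for GDNF, was the other, with none in AD and 3.61 ± 5.80 CPM in AV. Bmp2, a bone morphogenetic protein outside the list, was at 13.4, 25.9, 31.5 and 9.86 CPM in AD against 1 read in AV, a ratio of 2153 (95% counting interval 386 to 85146, adjusted p = 0.000110).

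The list of neurofilaments and axonal cytoskeleton also took in other genes, such as Spock3. It gave 5 calls higher in AD and 4 lower (Gap43, Spock3, Tnnt1 and Ank3) of 21 (42.9%, against 5.69% of all genes). With the animal as a term the counts were 3 and 1. Nefl, the light neurofilament chain of large axons, was at 1524, 918, 905 and 684 CPM in AD and 181 to 578 in AV with a median of 475 (log2 fold change 1.17 ± 0.20, adjusted p = 7.97e-06). Nefm, the medium chain, was at 2373, 1415, 977 and 1029 CPM in AD and 255 to 798 in AV (log2 fold change 1.29, adjusted p = 0.00191), and it was not called without AD 1 (0.0975). Exons of Nefl and Nefm overlap on opposite strands in the annotation, so reads of the pair could not be assigned by strand. Spock3, a testican proteoglycan, was lower in AD at 47.3, 63.0, 73.0 and 46.2 CPM against 93.1 to 282 in AV (log2 fold change -1.63 ± 0.26, adjusted p = 6.35e-07).

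Oxidative phosphorylation genes gave 1 call of 76, Ndufa10, a subunit of complex I, and 2 with the animal as a term. Ndufa10 was at 638, 516, 368 and 477 CPM in AD and 115 to 345 in AV, without overlap (log2 fold change 1.06 ± 0.23, adjusted p = 0.000735). The median log2 fold change of the 76 was 0.32, above that of all genes at -0.08, and the share called (1.32%) was under that of all genes (5.69%).

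Among the remaining genes with the largest changes, Slc44a5, a choline transporter-like protein, was at 68.4, 92.5, 133 and 78.4 CPM in AD with 6 reads in AV, all in AV 4 (adjusted p = 4.21e-07). Ano3, an anoctamin, was at 38.8, 56.1, 44.5 and 56.5 CPM in AD and at most 0.309 in AV (log2 fold change 9.79, and 11.40 without AV 3, adjusted p = 1.36e-06). On the AV side, Iqsec3, a guanine nucleotide exchange factor of inhibitory synapses, was at 0.127, 0.0857, 0.157 and 0 CPM in AD and 35.1 to 114 in AV with a median of 51.7 (log2 fold change -9.20 ± 0.96, adjusted p = 2.60e-13). Rapgef3, the cAMP sensor EPAC1, and Ak5, an adenylate kinase, had no read in AD and were at least 246-fold and 303-fold higher in AV.

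The levels of some genes are given within the 3 mice that gave both nuclei. The CPM ranges of AD and AV did not overlap for these genes, so their direction in each mouse was already fixed. The Kcnq3 level was higher in AV in each mouse, as were Col25a1, Npsr1, Rgs7, Grin2b, Cck and Kcnc2. C1ql2, Frem3, Slc17a7, Gabra2 and Nefl were higher in AD in each. With the animal as a term the log2 fold change was -5.08 for Kcnq3 (adjusted p = 1.36e-14), -2.10 for Grin2b (2.58e-07), 8.39 for C1ql2 (1.10e-07) and 5.85 for Frem3 (2.35e-09).

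**Figure D4:**
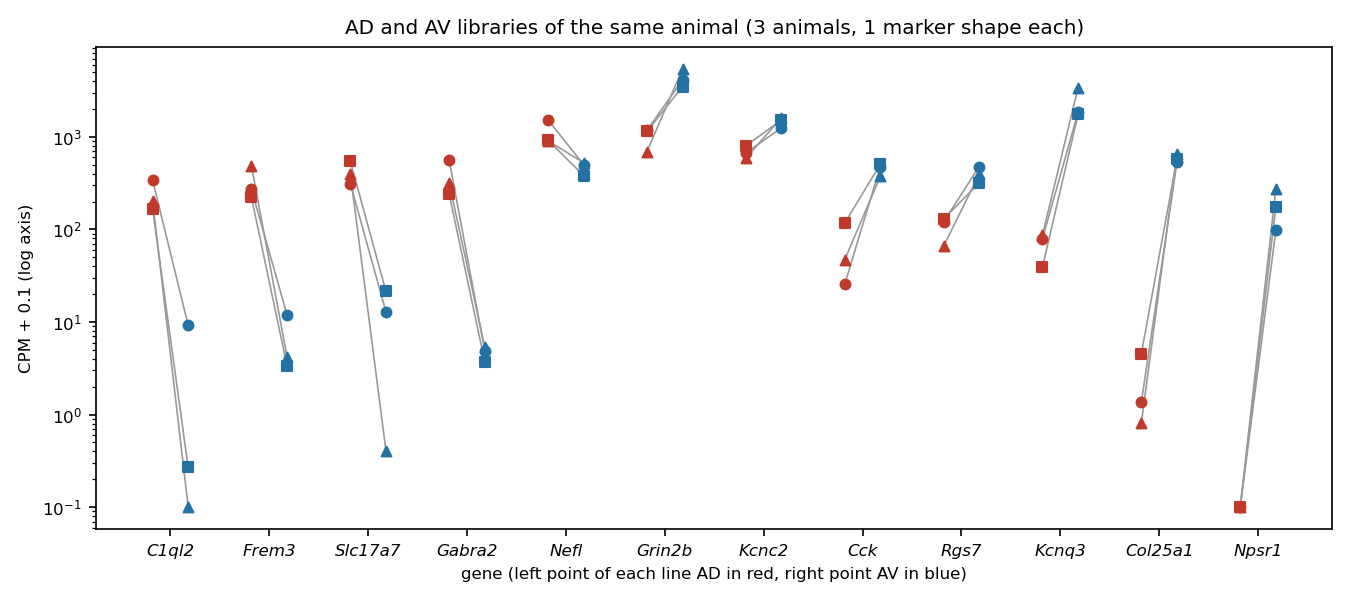
Level of 12 genes (CPM + 0.1, log axis) in the AD library (red) and the AV library (blue) of each of the 3 mice that gave both, joined by a line, with 1 marker shape per mouse. All lines of the first 5 genes fall from AD to AV and all lines of the other 7 rise, as they must where ranges do not overlap.

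Set against LD, the third nucleus labelled from the retrosplenial cortex, AD and AV stood apart in different genes. AD differed from LD in 1112 genes (6.73%), 425 higher in AD (2.57%) and 687 lower (4.16%). AV differed from LD in 909 (5.50%), 317 higher in AV (1.92%) and 592 lower (3.58%). With the animal as a term AV differed from LD in 155 genes and with the amplification date as a term in 46, and AD from LD, through the AV libraries that share dates and animals with each, in 259 and 111 genes in a joint fit of the 3 nuclei. The comparisons share libraries, so their values are given side by side. Of the 940 genes, 407 were also called in AD against LD with the same sign and not in AV against LD, 136 of them higher in AD. Another 139 were called in AV against both and not in AD against LD, 32 of them higher in AV.

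Kcnq3 was at 3114 ± 1263 CPM in LD (SD, n = 5), near AV at 2171 ± 869 (AV against LD adjusted p = 0.341) and far above AD at 52.6 ± 38.1 (AD against LD adjusted p = 1.77e-19). LD held 927 ± 240.5 CPM of Cck, with the mean order of LD, AV and AD as for Kcnq3. For Adgrl2 the order was AV at 289 ± 59.1, LD at 196 ± 44.0 and AD at 9.60 ± 4.52. Neither gene was called between AV and LD (adjusted p = 0.167 for Cck and 0.115 for Adgrl2). Slc17a7, by contrast, was at 382 ± 235 in LD, above AV (adjusted p = 1.07e-07) and not called against AD at 518 ± 222 (adjusted p = 0.858). Syt2 was likewise at 114 ± 47.9 in LD, 121 ± 116 in AD and 0.861 ± 0.900 in AV. Cbln1 was at 2.81 ± 6.07 in LD and set AV apart from both (AV against LD adjusted p = 3.17e-05, AD against LD 0.755). Slit2 and Frem3 were called higher in AD than in LD, at 0.744 ± 1.66 and 7.76 ± 17.0 CPM in LD (adjusted p = 0.00169 and 0.000289). In the joint fit Slit2 lost this call with the animal as a term (log2 fold change -0.22, adjusted p = 0.977) and with the date (0.43, 1.00), and Frem3 kept it with the animal (5.64, 0.00192) but not with the date (adjusted p = 0.694). Kcnq3, Adgrl2 and Cck kept their calls between AD and LD in both.

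Levels in the 22 nuclei of the series are given as a description with no test. AD had the highest mean of the 22 in 162 of 377 genes called higher in AD with at least 10 CPM in some nucleus (43.0%, against 7.98% of all 12032 such genes). It had the lowest mean in 274 of 458 genes called lower (59.8%, against 10.6% of all). AV was the highest in 53 of the 458 (11.6%, against 4.25% of all) and the lowest in 92 of the 377 (24.4%, against 4.03% of all). Choosing genes for a difference between AD and AV raises these shares for both nuclei.

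C1ql2 was highest in AD at 256 ± 83.5 CPM, and the next nucleus in the order was AV at 1.36 ± 3.15. For Gpr139 the next was the nucleus labelled SPA with 2.77 ± 4.15 CPM, and for Frem3 that labelled CL with 153 ± 26.9, and the libraries of AD lay above both. Npsr1 was highest in AV at 189 ± 73.9, followed by the ventrolateral nucleus at 24.9 ± 18.1, without overlap. Kcnq3 was lowest in AD, and the next lowest, the paraventricular nucleus at 550 ± 169, did not overlap AD. AV was the sixth highest for Kcnq3 and overlapped its neighbours in the order. Slc17a7 was highest in AD but overlapped the dorsal lateral geniculate nucleus at 421 ± 80.7, and AV was in place 15 of 22. Col25a1 was lowest in AD, where the highest library, at 4.46 CPM, was under the lowest of the next nucleus, the posterior nucleus, at 18.03. AV was in place 7 of 22 for Col25a1, overlapping its neighbours, and the highest nucleus was the one labelled IAD at 807 ± 83.8 CPM. For Cbln1 AV was the third, after the nuclei labelled AM at 604 ± 67.3 and IAD at 464 ± 70.1, and it overlapped IAD.

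**Figure D5:**
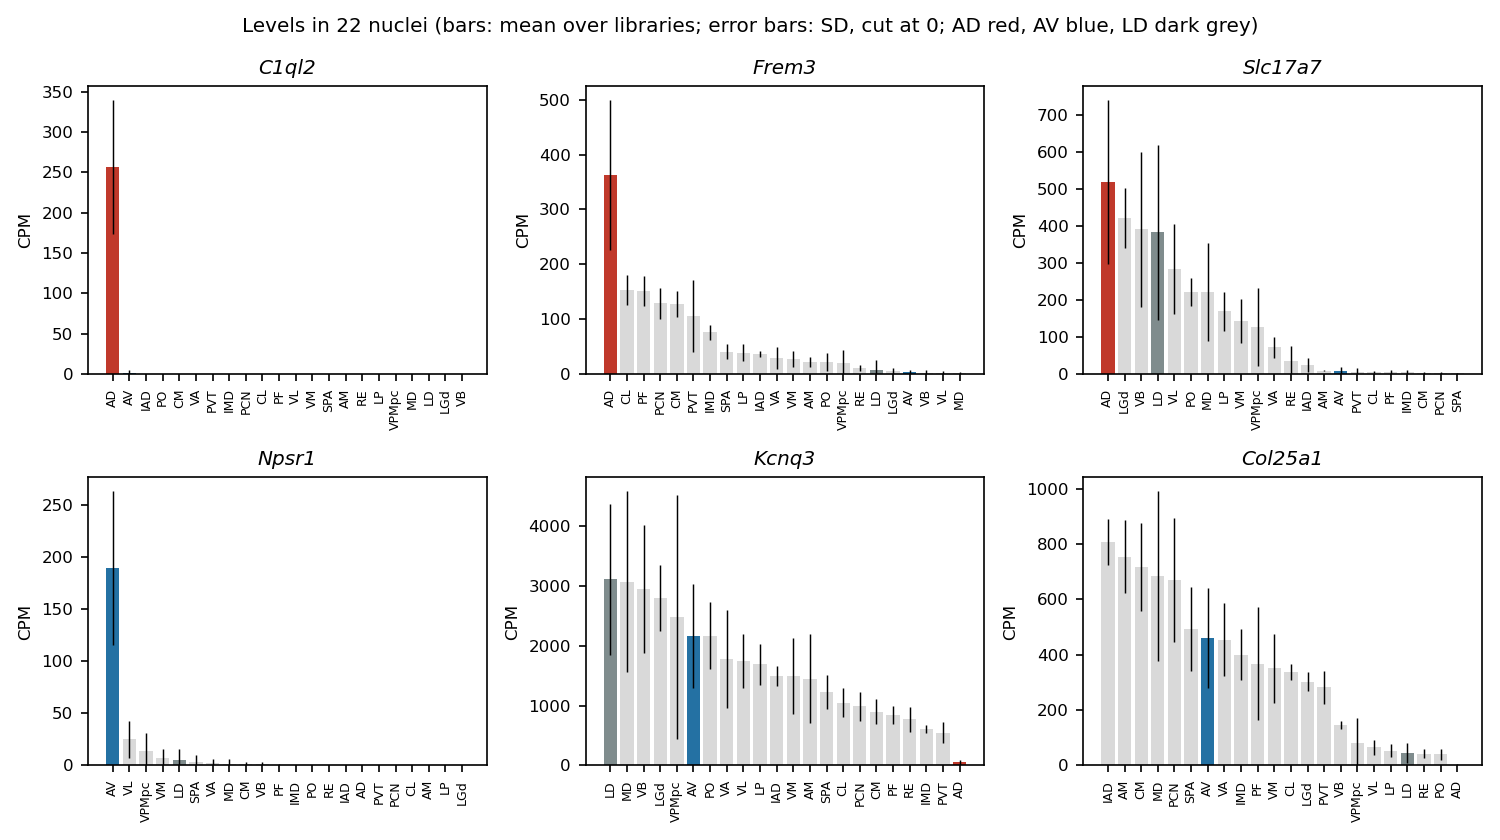
Mean level (bars, CPM) with the SD over libraries (error bars, ended at 0) of 6 genes in the 22 nuclei, in order of level, with AD in red, AV in blue and LD in dark grey. AD is first for C1ql2, Frem3 and Slc17a7 and last for Kcnq3 and Col25a1, and AV is first for Npsr1.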

How the data were processed

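Bulk RNA-seq counts per gene were used as deposited. The authors' values are raw read counts per gene for 120 libraries in 1 table of 16538 genes, made with cutadapt 1.16, STAR 2.5.3a and featureCounts 1.52 on mm10, per the submitters' processing notes. Their settings are not given in the sources used here. Cell numbers, ages, animals and amplification dates came from the deposited metadata. The kit amplifies RNA without marking strand or molecules.

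Genes were tested with edgeR 4.0.16 (limma 3.58.1, R 4.3.3; TMM scaling, quasi-likelihood test, two-sided) in 1 fit of all libraries, with a coefficient for each of 24 groups. The filter (minimum count 10, total 15) left 16527 genes, and the Benjamini-Hochberg adjusted p threshold was 0.05. The fit was tested on simulated data. Duplicate libraries were looked for in 44 pairs and none was found. Alternatives were DESeq2 1.42.0, other scaling, no filter, fits of the compared groups alone, and the same fits with blocks for animal, date or replicate number. Each library was also left out. Added after the data were seen were the AV libraries of the shared date alone and the date and animal blocks over AD, AV and LD together.

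Genes named by rule were first the 12 largest changes per direction among called genes with ranges apart, leaving out clone-named models. These had 10 CPM or more on average in the nucleus where they are high. The rule also took up to 2 called members per direction of each of 33 lists, except the 8 lists of other cell types. A fixed set was added. Some genes that the rule names are not reported here. Other names were chosen after their values were seen. The members and lists were chosen with earlier results of these data known. The metadata give 3 mice with both nuclei, which pairs their libraries. The deviations of those pairs correlated at r = 0.0370, 0.0125 and 0.00115 over 13664 genes. Pairs from different mice ran from r = -0.103 (AD 4 with AV 1) to 0.192 (AD 4 with AV 7), a span that holds these values. Gene positions are from GENCODE M21 and promoters from RefSeq. Figures were drawn with matplotlib 3.10.9 in Python 3.11.15.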

Additional observations from a re-analysis of the deposited data

Results flagged for a closer look

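For each named gene reported here the 4 AD libraries and the 8 AV libraries were searched for a highest or lowest library that stood apart from the rest of its nucleus, by the gap to the nearest other library over the whole range (Dixon's 95% critical value). In 41 of 202 groups a library did so. The critical value assumes normally distributed values, which CPM with many zeros are not, so no rate expected by chance is given. A group with reads in 1 library alone is always flagged. Many of the values are of 1 to a few reads against libraries with none. Each is given in CPM, with the nearest other library of the same nucleus after it, and the causes were not tested.

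AD 2 held the highest value of Adrb1 (3.17, nearest 0.236), Aim1 (0.0857, nearest 0) and Cacng4 (30.0, nearest 0.236). The same library held the highest value of Calb1 (5.31, nearest 0.157), Calb2 (12.4, nearest 1.24) and Igf1 (2.31, nearest 0.127). It also held the highest value of Necab1 (35.1, nearest 2.57). It also held the lowest value of Gpr139 (158, nearest 259). AD 3 held the highest value of Adgrl2 (16.3, nearest 7.88), Etv5 (7.63, nearest 0.746) and Kctd16 (0.0787, nearest 0). AD 4 held the highest value of Cbln2 (0.0829, nearest 0), Lmod2 (0.0829, nearest 0) and Npsr1 (0.0829, nearest 0).

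AV 1 held the highest value of Bmp2 (0.124, nearest 0), Chrm1 (0.248, nearest 0) and Col12a1 (90.3, nearest 35.6). The same library held the highest value of Gabra2 (72.4, nearest 5.90), Gabra5 (59.3, nearest 23.5) and Hspb8 (0.248, nearest 0). It also held the highest value of Iqsec3 (114, nearest 71.4), Kcnj6 (267, nearest 129.9) and S100a10 (0.124, nearest 0). AV 2 held the highest value of Grik4 (2.08, nearest 0.248), Sema5b (1.18, nearest 0.172) and Slit2 (11.2, nearest 2.42). AV 3 held the highest value of Adgrf2 (47.5, nearest 20.01), Ano3 (0.309, nearest 0.0562) and Gria1 (129, nearest 54.0). The same library held the highest value of Grin2b (5409, nearest 4110), Necab1 (22.5, nearest 7.57) and Nr2f2 (82.0, nearest 26.4). AV 4 held the highest value of C1ql2 (9.12, nearest 0.992) and Frem3 (11.8, nearest 4.09). The same library held the highest value of Ntng2 (1.07, nearest 0.237) and Slc44a5 (0.582, nearest 0). AV 6 held the highest value of Cldn1 (56.0, nearest 14.9) and Gbx2 (34.1, nearest 14.2). AV 8 held the highest value of Ak5 (62.5, nearest 29.4), Fgf1 (4.79, nearest 1.37) and Mpp3 (0.184, nearest 0.0562).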

How the results depend on the processing

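Between AD and AV 940 genes were called, 959 with RLE scaling, 936 without the filter, 967 with DESeq2 and 780 with the AV libraries of the shared date, an alternative chosen after seeing the data. A fit of the compared groups alone, with fewer samples, called 475. The same libraries gave 430 with the date as a block and 413 with the animal as a block. For AD against LD, 1112 became 467 in the fit alone. For AV against LD, 909 became 297 in the fit alone, 46 with the date and 155 with the animal as a block. AD and LD share neither, and in a fit of AD, AV and LD together, added after seeing the data, AD against LD gave 111 with the date and 259 with the animal as a block. Leaving out 1 library gave 707 to 921, 783 to 1162 and 649 to 952 calls for the 3 comparisons, and 87 to 95 of the 95 called named genes. Without 1 library the log2 fold change of Necab1 ran from -1.98 to 1.71 and that of Calb2 from -2.67 to 0.33, neither called. Over the named genes and alternatives, 1931 values kept direction and side of the threshold, 135 lost a call, 3 gained one and 3 reversed; the cause was not tested.

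The replicate numbers of the labels pair the mice only in part: AD 2 with AV 2 and AD 3 with AV 3 share a mouse and a number, while AD 1 shares its mouse with AV 4. With the replicate number as a block, 277 genes were called for AD against AV, 424 for AD against LD, 146 for AV against LD and 60 of the named genes, and the log2 fold change of Necab1 was -0.12. Of the 95 calls, 24 ended with the animal, 19 with the date and 33 with the replicate number as a block. The calls kept were 69, 74 and 60 in that order. These blocks were fitted on the AD and AV libraries alone, where 13 calls ended and 80 were kept without any block. Bhlhe22 is among the calls neither kept nor ended, since these fits did not test it. A call lost with a block need not be lost through the block. Among the genes described, the replicate number ended the calls of Nefl (adjusted p = 0.0585), Nefm (0.0821), Nr2f2 (0.107), Chrm3 (0.1002) and Cbln2 (0.0769), which the animal and the date did not.

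The 4 AD libraries limit the power for small differences, and levels near 1 read per library rest on counting error. Age and date coincide within AV, and the AV libraries of the shared date, those of both dates against each other, and the animal as a block are the comparisons that bear on them.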
